A study of Caenorhabditis elegans with 15 samples.

Results

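The pals genes of Caenorhabditis elegans were examined in RNA-seq of early embryos. The family was taken as every row of the deposited count table whose WormBase symbol begins with pals-. This gave 36 genes among 20392, while pals-10 and pals-21, the remaining 2 of the 38 such symbols in WormBase, had no row. RefSeq gives a further name, pals-36, to a pseudogene (WBGene00044787) that carries no such WormBase symbol and was not counted as a member. The 15 libraries came from bulk early embryos taken before the bean stage, 3 libraries in each of 5 groups. At 20 °C these were the laboratory wild type N2 (WT), the deletion strain met-2(n4256), written met-2Δ, and met-2(gw1660), written met-2-CD, a point mutant in the catalytic domain. WT and met-2Δ were also sampled after a heat stress (HS) of 1 h at 37 °C, given to the worm cultures before RNA was extracted. MET-2 is the worm SETDB1-like methyltransferase for lysine 9 of histone H3, and the question was how this family behaves without MET-2, without its catalytic activity and under HS.

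PALS proteins share a divergent domain of unknown biochemical function, the ALS2CR12 signature, and the family is greatly expanded in C. elegans. Many members belong to the intracellular pathogen response, a set of genes switched on by microsporidia, by the Orsay virus and by blocks to proteasome function or prolonged heat. A few members are regulators of that response: pals-22 represses it, pals-25 acts opposite to pals-22 and is needed for its activation in pals-22 mutants, pals-17 represses it, and pals-16 and pals-20 promote it. The promoter of pals-5 is the usual reporter for the response. In adults and larvae the response is best known from the intestine and the epidermis.

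Library totals ran from 16.15 to 58.84 M counts, and 3 counts in a library corresponded to between 0.0564 and 0.18 CPM (counts divided by the library total in M counts, after scaling by TMM factors). The targeted gene met-2 lay at 306 to 318 CPM in WT and 281 to 309 CPM in met-2-CD at 20 °C, and at 32.5 to 34.2 CPM in met-2Δ, so that reads from the locus were still counted in the deletion strain. The WT libraries at 20 °C stood apart from the other 12: 28 genes had 3 counts or fewer in all 3 of them and 20 or more in every other library, or the reverse, and no other group was set apart in this way by any gene. None of the 28 was a pals gene. Markers of embryonic stage and tissue also differed. The 7 early-embryo markers were present in every group, with summed levels of 1512 to 2025 CPM in WT at 20 °C, 1433 to 1657 CPM in WT under HS, 1769 to 1964 and 1823 to 2027 CPM in met-2Δ at 20 °C and under HS, and 1188 to 1621 CPM in met-2-CD. The sums are carried by abundant genes. Of the 7, end-1, end-3 and tbx-37 were lower in both mutants at 20 °C (edgeR FDR below 0.01 and over 2-fold), at a log2FC (log2 fold change) of -1.72, -1.34 and -1.04 in met-2Δ and -1.55, -1.36 and -1.02 in met-2-CD, and they stood at -2.37, -1.97 and -1.52 in heated against unheated WT. The muscle myosins myo-3 and unc-54 summed to 50.3 to 124 CPM in WT at 20 °C, but to 1403 to 2227 CPM in WT under HS, 367 to 554 and 1198 to 1491 CPM in met-2Δ, and 317 to 701 CPM in met-2-CD. The 5 intestinal markers summed to 83.7 to 108 CPM in WT at 20 °C, 349 to 424 CPM in WT under HS, 126 to 149 and 200 to 222 CPM in met-2Δ, and 115 to 190 CPM in met-2-CD. The rise of this sum rests on act-5 and ifb-2, with a log2FC of 3.37 and 4.58 in WT under HS, while elt-2, elt-7 and ges-1 stood at -1.07, -0.92 and -0.43. The 5 epidermal markers summed to 49.1 to 109 and 164 to 210 CPM in WT, 85.9 to 90.6 and 124 to 139 CPM in met-2Δ, and 117 to 218 CPM in met-2-CD. The rise in WT under HS rests on dpy-7, with a mean of 56.6 CPM at 20 °C and 165 CPM under HS. The means of elt-3 and bli-1 were lower under HS, at 13.0 against 27.1 and 0.813 against 1.11 CPM. Those of rol-6 and col-19 were higher, at 0.427 and 0.296 CPM under HS. At 20 °C elt-3 was called lower in met-2Δ (log2FC -1.50) and dpy-7 higher in met-2-CD (1.38). The sperm genes msp-3 and msp-19 were at 0 in all groups but met-2-CD, where msp-3 reached 0.0414 CPM at most. The 3 adult intestinal markers vit-2, vit-5 and vit-6 summed to 0.477 to 1.75 and 6.81 to 13.9 CPM in WT at 20 °C and under HS. Their sums were 0.298 to 0.58 and 2.44 to 2.82 CPM in met-2Δ, and 0.166 to 0.497 CPM in met-2-CD. In heated WT their log2FC was 2.52, 5.89 and 2.85. In bulk samples more cells of a type and more RNA per cell cannot be told apart, and the part of these shifts in the changes described next was not tested.

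The members fall into a few clusters in the genome (positions from the WBcel235 annotation by gene identifier, all protein-coding). On chromosome I, 13 members lay between 13083321 and 13144623, among them pals-5, pals-6, pals-14 and pals-15, and pals-1 lay apart at 11579856 to 11581989. Chromosome III held 3 clusters. The first ran from 120435 to 137975 with pals-24, pals-23, pals-22 and pals-25 on the same strand, the second from 1376945 to 1406263 with pals-40, pals-20, pals-17, pals-16, pals-19 and pals-18, and the third from 4375154 to 4387757 with pals-26, pals-27 and pals-28. The regulator pair pals-22 and pals-25 was separated by 92 bp, and pals-24 and pals-23 by 87 bp. On chromosome V, pals-37, pals-39 and pals-38 lay together between 12437440 and 12446995, while pals-31, pals-32, pals-33 and pals-34 lay singly, and pals-29 and pals-30 were neighbours on chromosome IV. Exons of pals-3 and pals-12 share 1185 bases on the same strand and those of pals-19 and pals-18 share 53, so reads there could not be assigned to a single member.

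Most members were scarcely expressed in these embryos. A filter on low counts (filterByExpr, a cutoff of 0.375 CPM in at least 3 libraries) kept 22 of the 36. Of these, 8 passed the cutoff in all 5 groups: pals-16, pals-17, pals-18, pals-19, pals-22, pals-25, pals-26 and pals-27. By contrast, pals-15, pals-28, pals-37, pals-38, pals-39 and pals-40 passed only through WT under HS, and pals-6, pals-14 and pals-20 only through the 2 HS groups. pals-31 passed in no group as a whole, and reached the cutoff only in replicates b and c of heated WT and b of heated met-2Δ. Passing in this way selects for members that are high in the HS groups, so the counts of called members given next are descriptions and carry no weight as evidence on the family. Per kilobase of exon, the mean level over all libraries was highest for pals-26 (9.38 CPM per kb), followed by pals-25 (6.32), pals-22 (5.60), pals-19 (1.85) and pals-27 (1.54), whereas the lowest, pals-3, stood at 0.0022 CPM per kb.

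Taken as a sum, the 36 genes had 28.7 ± 3.46 CPM (SD, n = 3) in WT at 20 °C. The sum was 45.0 ± 4.48 CPM for met-2Δ and 45.8 ± 4.72 CPM for met-2-CD at 20 °C, 94.7 ± 4.39 CPM in WT under HS and 54.9 ± 2.43 CPM in met-2Δ under HS. A single gene made up much of these differences. Without pals-26 the sums were 25.7 ± 3.50, 24.01 ± 0.70, 30.2 ± 3.45, 34.7 ± 1.84 and 26.98 ± 0.871 CPM in the same order. The share of the family's counts that fell on pals-26 was 8.76% to 12.4% in WT at 20 °C, 40.9% to 51.1% in met-2Δ, 32.6% to 35.8% in met-2-CD, 59.2% to 65.9% in WT under HS and 49.4% to 52.8% in met-2Δ under HS.

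**Figure D1:**
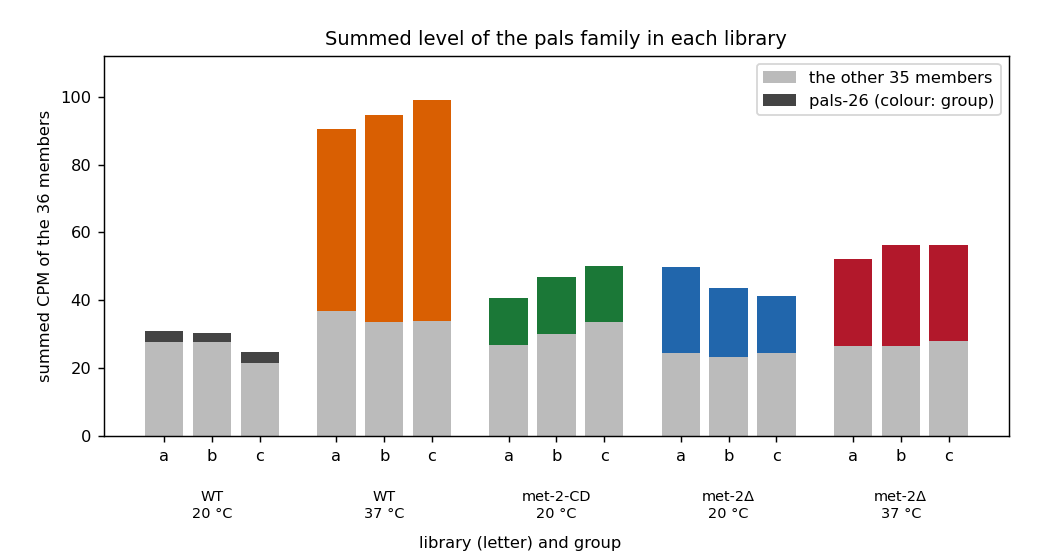
Summed CPM of the 36 pals genes (y axis) in each of the 15 libraries (x axis, letters a to c within each group). The grey part of each bar is the other 35 members and the coloured part is pals-26, which grew from 8.76% to 12.4% of the family's counts in WT at 20 °C to 59.2% to 65.9% in WT under HS.

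At 20 °C, 4 members were higher in met-2Δ than in WT and the same 4 were higher in met-2-CD than in WT: pals-26, pals-23, pals-24 and pals-34. A gene was called between genotypes at an FDR below 0.01 with a fold change above 2 (edgeR quasi-likelihood F test, adjusted over all 15471 genes tested). The 4 of 22 amount to 18.2%, close to the background in both contrasts, where 19.2% of all genes were called higher for met-2Δ and 15.9% for met-2-CD. No member was called lower by edgeR or by DESeq2 (background 8.43% and 7.84%), with 2 members for met-2Δ and 1 for met-2-CD lower at an unadjusted p under 0.05. At the same limit 8 members were higher for met-2Δ and 6 for met-2-CD, the 4 called included. The median log2FC of the 22 was 0.33 for met-2Δ and 0.50 for met-2-CD, beside 0.07 and 0.04 over all genes. The unheated WT libraries serve as the reference in both contrasts.

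The highest mean level was that of pals-26 (WBGene00007131, chromosome III, 4375154 to 4378907), whose exons share 170 bases with those of WBGene00045188 on the same strand. pals-26 stood at 3.24, 2.65 and 3.06 CPM in the WT libraries at 20 °C, at 25.5, 20.4 and 16.9 CPM across met-2Δ, and at 13.9, 16.7 and 16.3 CPM across met-2-CD. All mutant libraries lay above all WT libraries, with a log2FC of 2.81 ± 0.15 (SE) in met-2Δ (edgeR FDR 3.94e-10) and 2.39 ± 0.15 in met-2-CD (edgeR FDR 2.33e-09). Its neighbours on the same strand moved less. pals-27 stood at 2.05, 2.12 and 1.82 CPM in WT, at 1.44, 1.92 and 1.49 CPM across met-2Δ, and at 2.04, 1.98 and 1.62 CPM across met-2-CD, and these groups overlapped. pals-28 was at 2 counts in all in each mutant and 10 counts in WT at 20 °C, and did not pass the FDR in either contrast.

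pals-23 and pals-24 lie next to the regulators pals-22 and pals-25. pals-24 had 4, 3 and 0 counts in the WT libraries at 20 °C, and stood at 0.815, 0.761 and 1.09 CPM across met-2Δ, and at 0.248, 0.561 and 0.932 CPM across met-2-CD. The WT libraries were all below the mutant ones, and the log2FC was 3.998 ± 0.60 in met-2Δ (edgeR FDR 2.78e-05) and 3.44 ± 0.60 in met-2-CD (edgeR FDR 0.000121). With so few reads in WT the pooled count ratio is a useful guide to precision: 64 against 7 counts gave a scaled ratio of 16.9 in met-2Δ, with an exact 95% interval of 7.73 to 43.6 that covers counting error only. The level of pals-23 was 0.0376, 0.191 and 0.0247 CPM in WT, 1.20, 0.761 and 0.943 CPM across met-2Δ, and 0.193, 0.520 and 1.08 CPM across met-2-CD. The groups did not overlap, although the lowest met-2-CD library was barely above the highest WT library. The log2FC of pals-23 was 3.51 ± 0.66 for met-2Δ (edgeR FDR 0.000247) and 2.86 ± 0.66 in met-2-CD (edgeR FDR 0.00147). The met-2-CD call was lost without replicate c of met-2-CD (log2FC 2.13, edgeR FDR 0.0124) and without replicate a of WT (log2FC 2.42, edgeR FDR 0.0113).

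pals-34, a single gene on chromosome V (7955404 to 7956497), stood at 0.0564, 0.0716 and 0.0247 CPM in WT, at 0.35, 0.435 and 0.496 CPM across met-2Δ, and at 0.497, 0.541 and 0.849 CPM across met-2-CD. Every mutant library was above every WT library. The log2FC was 2.95 ± 0.52 in met-2Δ (edgeR FDR 0.000142) and 3.53 ± 0.46 in met-2-CD (edgeR FDR 7.11e-06). The pooled counts behind these values were 7 in WT, 31 for met-2Δ and 85 for met-2-CD.

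**Figure D2:**
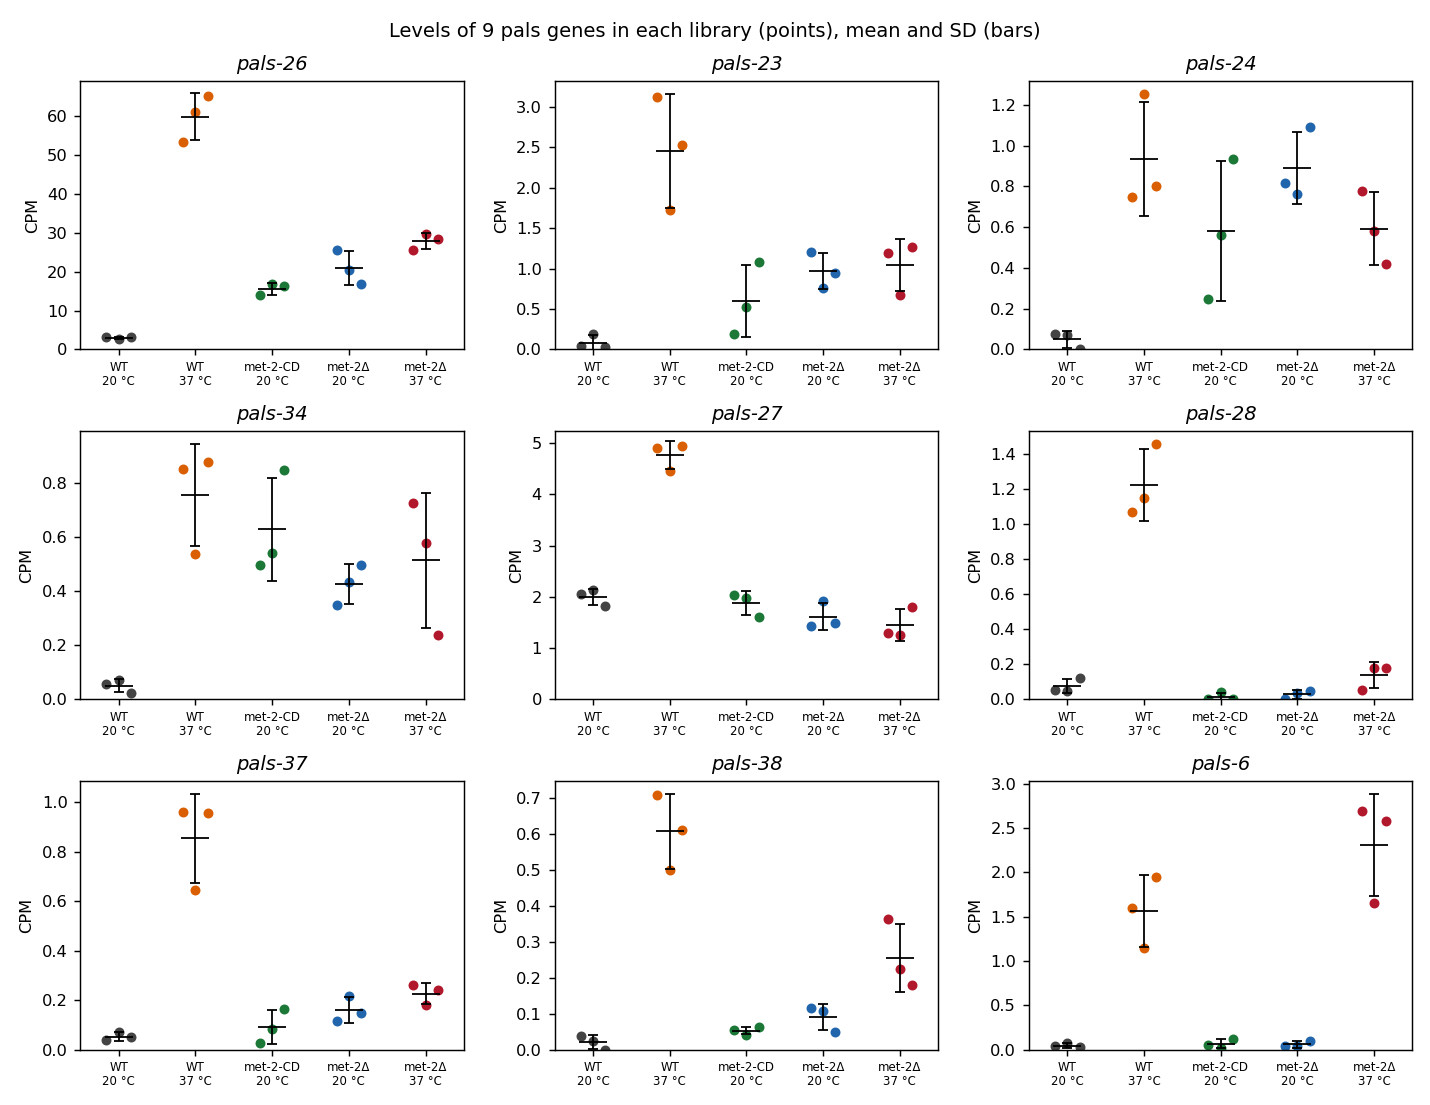
CPM (y axis, linear, from 0) of 9 pals genes in each of the 5 groups (x axis), with points for libraries and bars for the mean and SD. In the first row, all libraries of the other groups lay above those of WT at 20 °C, whereas pals-28 and pals-37 were high in WT under HS only, at 1.07 to 1.45 and 0.645 to 0.959 CPM, and pals-6 was high in both HS groups.

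No member was called different between met-2Δ and met-2-CD by edgeR or by DESeq2, against a background of 4.96% higher and 0.892% lower. At an unadjusted p under 0.05 there were 3 members higher and 4 lower. The median log2FC was -0.02, beside 0.01 over all genes. pals-26 was higher in every met-2Δ library than in every met-2-CD library, at a log2FC of 0.42 ± 0.13 (edgeR FDR 0.0222). The repressor pals-22 passed the FDR without reaching a 2-fold change, at a log2FC of -0.57 ± 0.15 (edgeR FDR 0.00834). It stood at 5.01, 4.79 and 5.31 CPM across met-2Δ, and at 6.85, 7.76 and 7.83 CPM across met-2-CD. For pals-23, pals-24 and pals-34 the log2FC between the mutants was 0.65 ± 0.49, 0.56 ± 0.41 and -0.58 ± 0.36, so that differences of this size lie within about 2 standard errors.

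**Figure D3:**
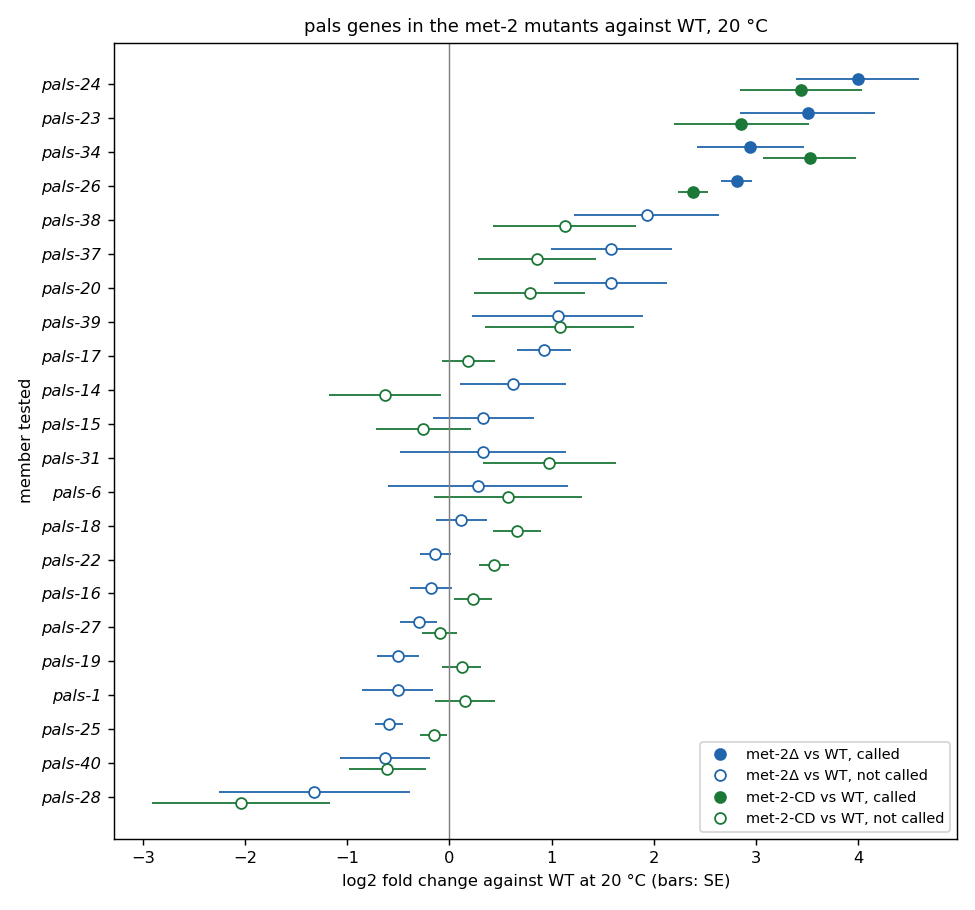
The log2FC against WT at 20 °C (x axis, bars are SE) of the 22 members tested (y axis), in met-2Δ (blue) and met-2-CD (green). Filled points are called members: pals-24, pals-23, pals-34 and pals-26 in both mutants, at 2.39 to 3.998.

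None of the regulators was called in the mutants at 20 °C. pals-22 had 6.30, 5.20 and 5.08 CPM in WT, and its log2FC was -0.14 ± 0.15 for met-2Δ and 0.43 ± 0.14 for met-2-CD (edgeR FDR 0.431 and 0.0163). pals-25 had 10.05, 11.03 and 7.94 CPM in WT, 6.41, 6.45 and 6.35 CPM across met-2Δ, and 7.84, 8.92 and 9.32 CPM across met-2-CD. The met-2Δ libraries were all below the WT ones, with a log2FC of -0.59 ± 0.14 that passed the FDR but not the fold threshold (edgeR FDR 0.00134), whereas met-2-CD overlapped WT (log2FC -0.15 ± 0.13). Since the genes are adjacent, their ratio within a library was also taken. The counts of pals-25 were 1.56 to 2.12 times those of pals-22 in the WT libraries at 20 °C and 1.15 to 1.5 times in the other 12 libraries, and the ranges did not overlap.

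pals-17, a repressor of the response, stood at 0.715, 0.74 and 0.715 CPM in WT, 1.36, 1.34 and 1.44 CPM across met-2Δ, and 0.663, 0.936 and 0.849 CPM across met-2-CD. The met-2Δ libraries were all higher than WT, at a log2FC of 0.93 ± 0.26 that passed the FDR and fell short of 2-fold (edgeR FDR 0.00606). With library totals in place of TMM, pals-17 was called higher in met-2Δ. The activators did not pass the FDR: pals-16 stood at 1.31 to 1.62 CPM in WT, with 0.943 to 1.55 CPM for met-2Δ and 1.58 to 1.90 CPM for met-2-CD, and pals-20 had 14 counts in WT, 23 for met-2Δ and 24 for met-2-CD (log2FC 1.58 ± 0.55 and 0.78 ± 0.55).

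Under HS in WT, 13 members were higher, with pals-6, pals-23, pals-38, pals-26 and pals-24 at the head. Between temperatures a gene was called at an FDR below 0.01 with a fold change above 4. The 13 of 22 members amount to 59.1%, beside 28.2% of all genes called higher. Of these 13, 5 had passed the count filter only through WT under HS and 3 only through the 2 HS groups. A further member of the 13, pals-31, had passed only through single heated libraries of both genotypes. No member was called lower by edgeR or by DESeq2 (background 4.02%), while 4 were lower at an unadjusted p under 0.05. The median log2FC of the 22 was 2.53, beside 0.18 over all genes. With a 2-fold threshold in place of 4-fold, 15 members were higher and 1, pals-25, was lower.

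The genes that were higher in the met-2 mutants were also higher in heated WT embryos. pals-26 reached 53.5, 61.2 and 65.3 CPM, against 2.65 to 3.24 CPM at 20 °C, a log2FC of 4.33 ± 0.15 (edgeR FDR 2.02e-12). pals-23 reached 3.12, 1.72 and 2.53 CPM (log2FC 4.85 ± 0.59, edgeR FDR 1.37e-06). pals-24 stood at 0.746, 1.25 and 0.804 CPM (log2FC 4.09 ± 0.59, edgeR FDR 8.2e-06), a range that overlapped that of unheated met-2Δ. pals-34 stood at 0.852, 0.538 and 0.88 CPM (log2FC 3.78 ± 0.47, edgeR FDR 1.57e-06). For these 4 genes no heated WT library overlapped an unheated one.

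Other members rose under HS that had not been called in the unheated mutants. On chromosome V, pals-37 had 2, 3 and 2 counts in WT at 20 °C and 27, 18 and 25 under HS, a log2FC of 3.94 ± 0.42 (edgeR FDR 3.26e-07). Its neighbour pals-38 had 3 counts in all at 20 °C and 50 under HS, a scaled ratio of 27.5 with an exact 95% counting interval of 8.88 to 138, and pals-39 had 5 and 41 counts (ratio 13.5, 5.35 to 43.9). The levels of all 3 genes were thus at or under the floor of 3 counts in each unheated WT library. On chromosome III, pals-28 had 3, 2 and 5 counts at 20 °C and 30, 32 and 38 under HS (log2FC 3.97 ± 0.43, edgeR FDR 3.54e-07). pals-27, between pals-26 and pals-28, went from 2.05, 2.12 and 1.82 CPM to 4.90, 4.44 and 4.94 CPM, a log2FC of 1.25 ± 0.17 (edgeR FDR 4.02e-06) that falls under the 4-fold threshold.

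In the large cluster on chromosome I, 3 members were expressed enough to be tested, and all 3 were called. pals-6 rose from 0.0376, 0.0716 and 0.0247 CPM to 1.6, 1.15 and 1.95 CPM, the highest log2FC of the family in this contrast at 5.02 ± 0.45 (edgeR FDR 3.88e-08). pals-14 rose from 0.113, 0.0716 and 0.0986 CPM to 0.923, 0.645 and 0.612 CPM (log2FC 2.88 ± 0.38, edgeR FDR 2.97e-06). pals-15 rose from 0.113 to 0.123 CPM at 20 °C to 0.358 to 0.65 CPM under HS (log2FC 2.18 ± 0.37, edgeR FDR 5.08e-05). The remaining call was pals-31 on chromosome V, with 13 counts at 20 °C and 35 under HS (log2FC 2.1 ± 0.61, edgeR FDR 0.00476). That call was lost without replicate b or c of heated WT and without replicate a or c of unheated WT, where its log2FC was 1.58 to 2.09.

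The regulators divided under HS in WT. pals-20, an activator, rose from 0.151, 0.0955 and 0.0493 CPM to 1.38, 1.11 and 1.07 CPM (log2FC 3.49 ± 0.44, edgeR FDR 1.83e-06). pals-17 passed the FDR with all heated libraries above the unheated ones, at 2.13, 1.15 and 1.53 CPM (log2FC 1.15 ± 0.26, edgeR FDR 0.000643). The others passed the FDR in the opposite direction without a 4-fold change. pals-25 stood at 4.69, 5.12 and 4.06 CPM under HS, below every unheated WT library (log2FC -1.06 ± 0.14, edgeR FDR 3.08e-06). pals-16 stood at 0.852, 0.86 and 0.88 CPM (log2FC -0.79 ± 0.21, edgeR FDR 0.00254), and pals-22 at 3.94, 4.34 and 2.87 CPM (log2FC -0.57 ± 0.15, edgeR FDR 0.00246). pals-19, which has no known regulatory role and shares exon sequence with pals-18, gave a log2FC of -0.71 ± 0.21 (edgeR FDR 0.00475). Scaling by library totals, which raises the median of all genes in this contrast by 0.23, left pals-25 past the FDR but not pals-16, pals-22 or pals-19, with their log2FC still negative at -0.56, -0.35 and -0.48.

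**Figure D4:**
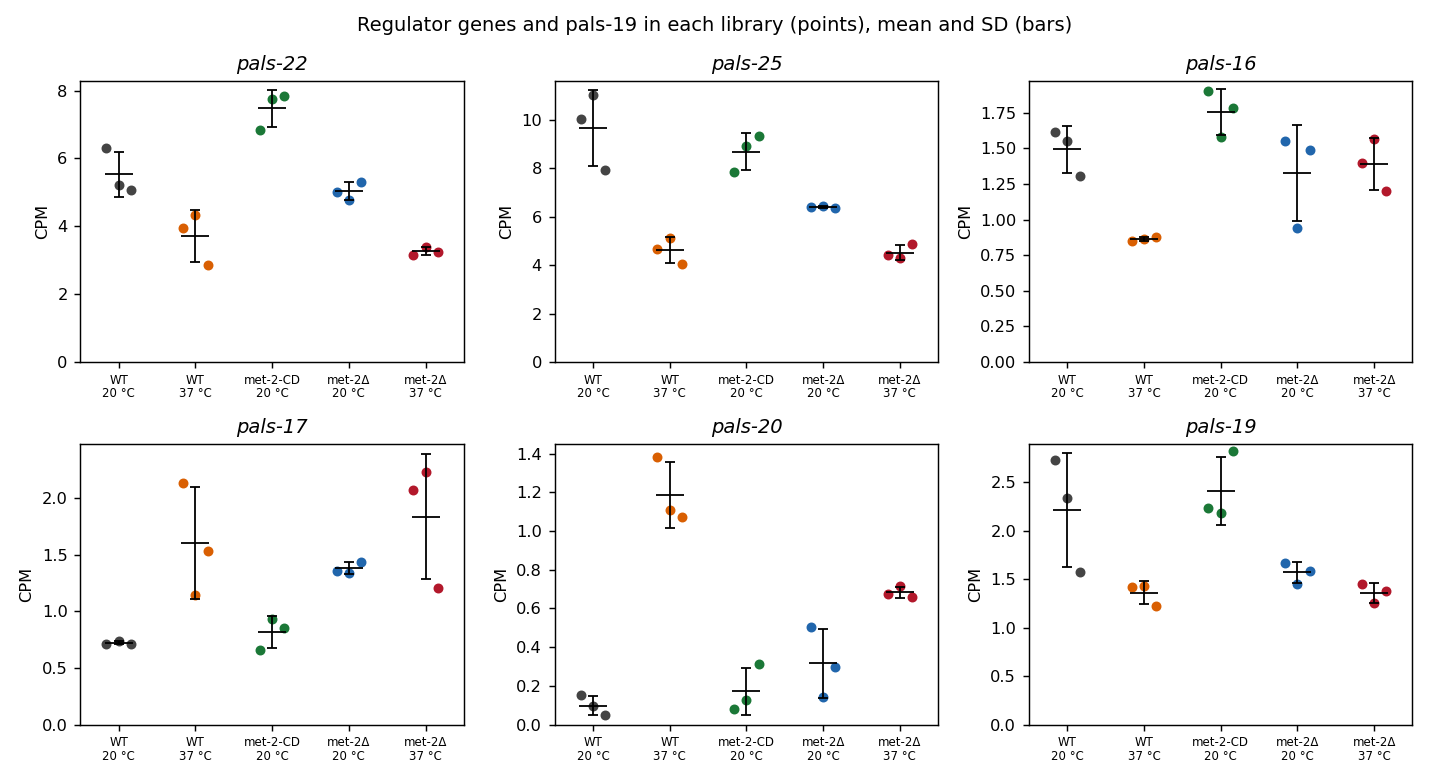
CPM (y axis, linear, from 0) of the regulators pals-22, pals-25, pals-16, pals-17 and pals-20, and of pals-19, in each of the 5 groups (x axis), with points for libraries and bars for the mean and SD. pals-25 was lowest in the HS groups, at 4.06 to 5.12 CPM in WT and 4.29 to 4.86 CPM in met-2Δ, while pals-20 was highest in WT under HS, at 1.07 to 1.38 CPM.

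In met-2Δ embryos the same heat stress called 2 members, pals-6 and pals-14, both from the chromosome I cluster. They amount to 9.09% of the 22, against 6.3% of all genes called higher, and both passed the filter only through the 2 HS groups. No member was called lower by edgeR or by DESeq2 (background 0.53%), and 2 were lower at an unadjusted p under 0.05. pals-6 went from 0.0388, 0.0363 and 0.0992 CPM to 2.70, 1.65 and 2.58 CPM (log2FC 5.30 ± 0.49, edgeR FDR 4.85e-07). pals-14 went from 0.233, 0.109 and 0.0992 CPM to 1.24, 0.67 and 1.14 CPM (log2FC 2.72 ± 0.40, edgeR FDR 4.45e-05). Heated and unheated libraries did not overlap for either gene. pals-15 from the same cluster gave 1.51 ± 0.45 and an edgeR FDR of 0.0107. The regulators pals-22 and pals-25 passed the FDR below 4-fold, at -0.62 ± 0.16 (edgeR FDR 0.00505) and -0.51 ± 0.15 (edgeR FDR 0.00969). The members that stood high in unheated met-2Δ gave a log2FC of 0.41 ± 0.13 for pals-26, 0.08 ± 0.51 for pals-23, -0.55 ± 0.46 for pals-24 and 0.31 ± 0.41 for pals-34, and none of the 4 passed the FDR.

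**Figure D5:**
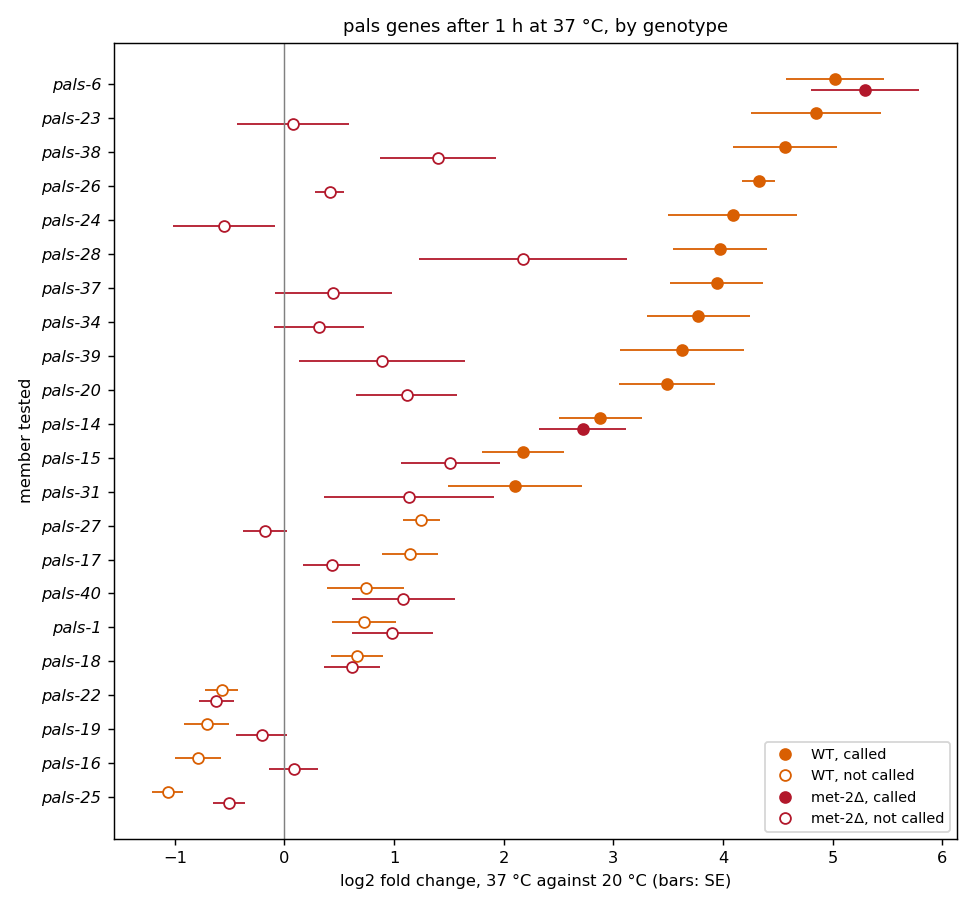
The log2FC from 20 °C to 37 °C (x axis, bars are SE) of the 22 members tested (y axis), in WT (orange) and met-2Δ (red), with filled points for called members. pals-6 and pals-14 have nearly the same value in both genotypes, while pals-23, pals-26 and pals-24 lie at 4.09 to 4.85 in WT and at -0.55 to 0.41 in met-2Δ.

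Whether the heat response differed between the genotypes was tested with the interaction contrast, the log2FC in met-2Δ minus that in WT, called at an FDR below 0.01. 8 members had a smaller response in met-2Δ, or 36.4%, beside 27% of all genes, and none had a larger response by edgeR or DESeq2, beside 23.1% of all genes. At an unadjusted p under 0.05, 2 members had a larger response. Of the 8, 2 had passed the count filter only through WT under HS and 1 only through the 2 HS groups. The interaction was -4.77 ± 0.81 for pals-23 (edgeR FDR 0.000122), -4.64 ± 0.77 for pals-24 (edgeR FDR 9.33e-05), -3.91 ± 0.20 for pals-26 (edgeR FDR 1.05e-09) and -3.46 ± 0.64 for pals-34 (edgeR FDR 0.000266). These 4 were already called higher in unheated met-2Δ than in unheated WT. Without a call, pals-37, pals-38 and pals-20 also stood higher there, at a log2FC of 1.58, 1.93 and 1.58 (edgeR FDR 0.0273, 0.039 and 0.0199). For pals-37 the interaction was -3.50 ± 0.73 (edgeR FDR 0.000663), for pals-38 -3.16 ± 0.81 (edgeR FDR 0.00329), for pals-20 -2.37 ± 0.67 (edgeR FDR 0.0061) and for pals-27 -1.43 ± 0.26 (edgeR FDR 0.000256). By contrast, pals-6 and pals-14 gave 0.27 ± 1.06 and -0.16 ± 0.55 and were not called, although a 2-fold smaller response lies within 2 standard errors of both. The calls of pals-20 and pals-38 rested on single libraries. pals-20 was lost without replicate a of heated WT, b or c of unheated WT, a or c of unheated met-2Δ, or any replicate of heated met-2Δ, where its value was -2.41 to -1.73, and pals-38 without replicate a or b of unheated met-2Δ or replicate c of unheated WT, where it was -2.96 to -2.63.

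The level reached under HS was compared directly as well. With a fold change above 2, no member was higher in heated met-2Δ than in heated WT by edgeR or DESeq2 (background 1.52%, with 1 member at an unadjusted p under 0.05), and 4 were lower, or 18.2%, beside 5.71% of all genes. Of these 4, 2 had passed the count filter only through WT under HS, which raises that share. pals-28 showed the widest gap, with 30, 32 and 38 counts in heated WT and 1, 4 and 3 in heated met-2Δ (log2FC -3.12 ± 0.47, edgeR FDR 0.000314). Its pooled count ratio was 0.113, with a 95% counting interval of 0.0474 to 0.231. pals-27 stood at 1.30, 1.25 and 1.80 CPM in heated met-2Δ, below all heated WT libraries (log2FC -1.73 ± 0.19, edgeR FDR 1.99e-05). pals-26 stood at 25.7, 29.7 and 28.4 CPM, again without overlap (log2FC -1.10 ± 0.13, edgeR FDR 4.47e-05), so that all 3 genes of that cluster were lower. pals-37 had 5, 4 and 4 counts in heated met-2Δ (log2FC -1.91 ± 0.40, edgeR FDR 0.00263), and this call was lost without replicate a or c of heated WT or without any replicate of heated met-2Δ. The other genes of its cluster had log2FC values of -1.23 ± 0.37 for pals-38 and -1.68 ± 0.53 for pals-39 and did not pass the FDR. pals-23, pals-24 and pals-34 gave -1.26 ± 0.46, -0.64 ± 0.45 and -0.52 ± 0.37 and did not pass the FDR either, with a 2-fold lower level within 2 standard errors of each.

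Since the unheated WT libraries stood apart, the heat response of WT was also computed against unheated met-2-CD, an alternative chosen after seeing the data. With this reference each heat value falls by the log2FC of met-2-CD over unheated WT, and each interaction value rises by it. Smaller changes of pals-26, pals-23, pals-24 and pals-34, called higher in met-2-CD, were thus given in advance. Their lost calls are therefore no separate test of the unheated WT libraries. The number of members called higher fell from 13 to 8 of 22, beside 19.6% of all genes. Those that kept the call were pals-6, pals-14, pals-15, pals-20, pals-28, pals-37, pals-38 and pals-39, at a log2FC of 2.43 to 6.01. pals-26 then gave 1.94 ± 0.13 and pals-23 1.99 ± 0.44, past the FDR but under 4-fold, and pals-24 and pals-34 gave 0.65 and 0.25 and did not pass. The interaction with this reference called 2 members, pals-26 (-1.53 ± 0.19, edgeR FDR 5.95e-05) and pals-27 (-1.52 ± 0.26, edgeR FDR 0.000849), beside 8.87% of all genes, and the value of pals-34 turned to 0.066. The contrasts within met-2Δ, and between the genotypes under HS, use no unheated WT library.

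The 14 members outside the test had at most 12 counts in any library: pals-2, pals-3, pals-4, pals-5, pals-7, pals-8, pals-9, pals-11, pals-12, pals-13, pals-29, pals-30, pals-32 and pals-33. Pooled over the 14, the groups held 52 counts in WT at 20 °C and 122 under HS, 38 and 60 for met-2Δ, and 72 for met-2-CD. Scaled for depth, the pooled count under HS was 3.87 times that at 20 °C in WT (exact 95% counting interval 2.78 to 5.46) and 1.99 times in met-2Δ (1.30 to 3.07). The unheated mutants were at 1.35 times WT for met-2Δ (0.863 to 2.09) and 1.42 times for met-2-CD (0.978 to 2.06), a difference not detectable at this depth. The 10 of them on chromosome I gave a ratio of 4.22 (2.62 to 6.999) in WT and 2.76 (1.49 to 5.33) in met-2Δ under HS.

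The reporter gene pals-5 was among these. It had 1, 1 and 0 counts in WT at 20 °C and 3, 4 and 3 under HS, a ratio of 8.25 with an interval of 1.76 to 77.4, and 3, 2 and 0 counts in unheated against 3, 5 and 0 in heated met-2Δ. pals-9, next to pals-6, was at 0 counts in all unheated WT and met-2Δ libraries. Under HS it had 8 counts in WT and 10 in met-2Δ. Scaled for depth, these were 4.40 and 4.20 times an assumed floor of 3 counts over the unheated group. The exact counting intervals of the pals-9 ratios had lower limits of 2.816 in WT and 2.824 in met-2Δ, and no upper limit. pals-32 had 4 counts in unheated and 28 in heated WT (ratio 11.6, 4.04 to 45.3), and pals-33 1 and 18 (29.7, 4.69 to 1237). The pseudogene named pals-36 in RefSeq was at 0 counts in unheated WT and 13 in heated WT, 9 of them in a single library.

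Genes of the pathogen response outside the family were followed as a list. Its ubiquitin ligase genes, which encode a cullin, Skp1-related adaptors, a RING protein and F-box proteins, numbered 7, and 5 were tested. skr-5, a Skp1-related adaptor, rose from 0.254 ± 0.07 CPM in WT (SD, n = 3) to 10.8 ± 0.517 CPM for met-2Δ and 6.502 ± 0.773 CPM for met-2-CD, and to 4.96 ± 0.336 CPM in heated WT. Its log2FC against unheated WT was 5.40, 4.67 and 4.28 (edgeR FDR 5.38e-12, 2.8e-11 and 1.56e-11), and that of heat in met-2Δ was -0.94 (edgeR FDR 5.7e-05). In met-2Δ at 20 °C, 3 of the 5 were called higher (skr-5, rcs-1 at 1.65 and skr-3 at 1.21), in met-2-CD 1 (skr-5), in WT under HS 3 (skr-5, rcs-1 at 2.89 and skr-3 at 2.05), and in met-2Δ under HS none. Of all genes, 19.2%, 15.9%, 28.2% and 6.3% were called higher in these contrasts. In heated WT, cul-6 passed the FDR just under 4-fold, at 1.93 (edgeR FDR 8.8e-08). The interaction called 4 of the 5 with a smaller response in met-2Δ, namely skr-5, rcs-1, skr-3 and cul-6, beside 27% of all genes. Among 7 other genes usually induced with pals-5, 6 were in the table, 4 were tested and none was called higher in these contrasts. In heated WT, eol-1 passed the FDR with a change above 2-fold and under 4-fold, at 1.057 (edgeR FDR 0.0061). Of those outside the test, chil-27 had 1 count in unheated and 31 in heated WT, and 0 and 9 in met-2Δ. F26F2.4 had 10 and 8 counts in WT, and 8 and 0 in met-2Δ. sdz-6 and F26F2.3 were called lower in both mutants, at -1.41 and -1.38 for met-2Δ and -1.46 and -1.69 for met-2-CD, and sdz-6 was called lower under HS, at -3.19 in WT and -2.63 in met-2Δ. Of 5 regulators outside the family, sta-1, a STAT-related repressor of the response, was called higher in met-2Δ (1.07) and met-2-CD (1.12). None of the 5 was called under HS in either genotype, where the threshold was 4-fold. In heated WT, sta-1 at 1.325 (edgeR FDR 1.45e-06) and pnp-1 at -1.072 (edgeR FDR 3.98e-08) passed the FDR with changes above 2-fold. The interaction was called for both, at -1.54 for sta-1 and 0.71 for pnp-1.

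The genes nearest to the members, up to 2 on each side of each, numbered 54, and 31 were tested. In met-2Δ at 20 °C 6 were higher and 3 lower, in met-2-CD 5 and 3, in WT under HS 10 and 1, and in met-2Δ under HS 5 and 0. In the same order, the shares of all genes called higher were 19.2%, 15.9%, 28.2% and 6.3%. Those called lower were 8.43%, 7.84%, 4.02% and 0.53%. The counts are a description of the regions only. In and beside the cluster with pals-23 and pals-24, 3 neighbours were tested, C29F9.2 and the F-box genes fbxb-81 and fbxb-82. All 3 were called higher in met-2Δ, at a log2FC of 2.20, 1.46 and 1.05. In met-2-CD only C29F9.2 was called, at 2.33, while fbxb-81 and fbxb-82 stood at 0.82 and 0.48. Near pals-28, in the cluster with pals-26, the gene R07E5.4 was called higher in met-2Δ at 1.66. In met-2-CD it was not called, at -0.80, while ckb-3, on the other side of pals-26, was called higher at 1.99. In met-2Δ ckb-3 was not called but stood at 1.73 (edgeR FDR 0.0272), and its log2FC between the mutants was -0.26. The median log2FC of the 31 was 0.19 in met-2Δ, -0.02 in met-2-CD, 0.95 in heated WT and -0.18 in heated met-2Δ, beside 0.07, 0.04, 0.18 and 0.04 over all genes.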

How the data were processed

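RNA-seq was carried out by the study on 5 groups of early embryos in 3 biological replicates each, with ribosomal RNA depleted. The deposited table holds whole-number read counts for each gene. The authors trimmed adapters (Trimmomatic), aligned to ce10 with hisat2 through QuasR, and counted uniquely aligned reads on the strand of the gene over WS220 exons with qCount. Reads shared by near-identical members have no unique alignment and so are missing from these counts.

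Symbols were matched by WormBase identifier, which 94.1% of genes had. Positions and exon lengths come from WBcel235 by identifier, and no coordinate was converted. The columns carry a letter in place of the replicate number of the labels. All 15 libraries entered 1 edgeR 4.0.16 model (R 4.3.3, limma 3.58.1) with 5 group means, TMM scaling and filterByExpr. 15471 genes were tested, and FDR values are Benjamini-Hochberg adjusted over all of them. Standard errors derive from the F statistic. The model was tested on simulated data before use. Intervals of pooled count ratios are exact (conditional binomial, 95%) and cover counting error only, as does the floor of 3 counts. Replicate pairs differed by more than sampling noise (chi-square per degree of freedom 6.63 to 53.6).

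Genes named are the known regulators and pals-5, the 5 members with the highest level per kb, and for each contrast all called members up to 10, or the 5 highest and 5 lowest called members without overlap. Members and gene lists were chosen with earlier results of these data known. Planned protein and promoter comparisons were not analysed here. Alternatives were scaling by library totals, scaling by the size factors of DESeq2 1.42.0, its Wald test, other filters, only the groups compared, thinning, other fold thresholds, the column letter as a block and leaving out each library.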

Additional observations from a re-analysis of the deposited data

Results flagged for a closer look

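The heat response of 8 members differed between WT and met-2Δ by the interaction term of the edgeR model, and these are the results to look at again. The difference in log2FC, met-2Δ minus WT, was -4.77 for pals-23, -4.64 for pals-24, -3.91 for pals-26, -3.50 for pals-37, -3.46 for pals-34, -3.16 for pals-38, -2.37 for pals-20 and -1.43 for pals-27. No group was examined for single deviating libraries, since each holds 3. The values of all 8 use the unheated WT libraries, which stood apart from the other 12, and with unheated met-2-CD in their place 2 of the 8 calls, pals-26 and pals-27, were kept. That change of reference adds the log2FC of met-2-CD over unheated WT to each value. For pals-23, pals-24, pals-26 and pals-34, called higher in met-2-CD, it is therefore no separate test.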

How the results depend on the processing

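Counts of called members were recomputed under other scalings, filters, tests and thresholds and, added after seeing the data, another reference group and a block. With a minimum of 1 CPM in 3 libraries the calls fell to 2 higher for met-2Δ at 20 °C, 2 higher for met-2-CD, 5 higher in WT and 1 in met-2Δ under HS, and 4 with a smaller heat response in met-2Δ, since the members lost were no longer tested. Thinning to the smallest library gave 8 higher in WT under HS and 5 with a smaller response. A 2-fold threshold for heat gave 1 lower in WT, and a 4-fold threshold for genotype gave 1 lower in heated met-2Δ than in heated WT. With unheated met-2-CD in place of unheated WT, 8 were higher in WT under HS, 2 had a smaller response, and the interaction of pals-34 was 0.066, against -3.46 with WT. The shift of pals-34 is its log2FC of 3.53 in met-2-CD over unheated WT. Leaving out 1 library gave 4 to 5 higher in met-2Δ, 3 to 4 higher and 0 to 1 lower in met-2-CD, 12 to 13 higher in WT under HS, 2 in met-2Δ under HS, 3 to 4 lower in heated met-2Δ than in heated WT, and 6 to 8 with a smaller and 0 to 1 with a larger response. The single extra calls were pals-20 in met-2Δ without replicate b of unheated met-2Δ, pals-28 without replicate b of met-2-CD, pals-16 without replicate a of unheated met-2Δ and pals-25 without replicate c of unheated WT. Of 46 member changes past the FDR, 27 stayed past it in the same direction under every alternative that still tested the member. Alternatives that dropped a member from the test were not counted. The 27 thus include the changes of pals-14, pals-15, pals-37, pals-38 and pals-39 in WT under HS, which were not tested at a minimum of 1 CPM. Library totals in place of TMM moved the median log2FC of all genes by 0.20 for met-2Δ, 0.13 for met-2-CD, 0.23 in WT under HS and -0.21 in the interaction. The columns share letters a to c across groups and not the replicate numbers of the labels. Of 30 same-letter pairs of libraries, 3 deviated together (correlation over 0.1). Pairing by letter was thus not seen, but with 3 libraries in a group this check cannot exclude it. With the letter as a replicate block, also added after seeing the data, every count of called members was the same (13 higher in WT under HS, 8 with a smaller response), and 6 of 15 libraries correlated best with their own letter.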
